A study of Mus musculus with 24 samples.

Results

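The genes described here encode the proteins of the large ribosomal subunit. They were taken from a list of 45 symbols, Rpl3 to Rpl41 and Rplp0 to Rplp2, and each gene was read at its brightest probe set annotated to that symbol, alone or together with pseudogene symbols. Of these, 41 genes had such a probe set, 17 with their own symbol only and 24 with pseudogene symbols beside it, among 11152 genes tested. All 41 passed the filter on low signals. Rpl18 was listed for no probe set, Rpl32 and Rpl36a shared theirs with the coding genes Rpl32l and Rpl36al, and Rpl35a shared its probe set with Ino80, so these 4 genes are not described further by value.

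Immortalized mouse erythroblasts, precursors of red blood cells, were grown without serum with Epo, SCF and Dex and were treated with cycloheximide, which holds ribosomes on mRNA, before harvest. The groups were cells given an Rpl11 shRNA, cells given an Rps19 shRNA, cells given a control construct (named ev in one label and sc in another) and untransduced cells, with 3 gradients each. The constructs came by lentivirus 3 days before harvest. RNA of each sucrose gradient was joined into a polysomal pool, from the polysomes to the 80S peak, and a subpolysomal pool of the other fractions, so that 12 gradients gave 24 arrays. Heterozygous loss of RPL11, RPS19 or several other ribosomal protein genes causes Diamond-Blackfan anaemia in humans, and the comparisons ask how a knockdown of each gene changes the mRNAs on ribosomes. The labels call the gradients of a group biological replicates and do not say how many shRNA sequences were used per gene.

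Most large-subunit proteins are carried into the nucleus and built onto ribosomal RNA in the nucleolus, and some, such as Rpl10, Rpl24 and the proteins of the stalk, join in the cytoplasm. Rpl5 and Rpl11 first join 5S ribosomal RNA in a particle that enters the subunit as a unit, and which binds Mdm2, the inhibitor of p53, when it is not used. Messenger RNAs of ribosomal proteins begin with a terminal oligopyrimidine tract, a C followed by a run of pyrimidines at the 5′ end, through which mTORC1 and the La-related protein Larp1 move them between the free and the ribosome-bound state as a group.

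The start regions of 6 genes on which the results below turn are shown to let the shared element be seen. Each line holds 30 bases of the coding strand near the annotated transcription start of RefSeq (build GRCm38.p6), which itself lies outside the lines of Rpl11, Rpl37 and Rpl41. Capitals mark the longest run of a C followed by at least 7 C or T. The regions are chr4:136053358-136053387 on the minus strand for Rpl11, chr5:107900500-107900529 on the plus strand for Rpl5, chr15:5116633-5116662 on the plus strand for Rpl37, chr9:120571501-120571530 on the plus strand for Rpl14, chr14:18270969-18270998 on the minus strand for Rpl15 and chr10:128549119-128549148 on the minus strand for Rpl41.
Rpl11: ccggaagtCTCCCTCTCTCTTCCTgttctc
Rpl5: tacagccaCTCTTTCTCacgtcgcttgcgt
Rpl37: cgggggtgCTTTCTCTTCCggtctctttgg
Rpl14: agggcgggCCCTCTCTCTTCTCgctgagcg
Rpl15: ggagaaagCCTTCTTCCTTTCCTCTggcgg
Rpl41: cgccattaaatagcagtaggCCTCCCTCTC

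The run is 16 bases long in Rpl11, 17 in Rpl15, 14 in Rpl14, 11 in Rpl37 and 9 in Rpl5. In Rpl41 it is at least 10, as it reaches the end of the searched window. With the annotated start as base 1, it began at base 15 in Rpl11, 29 in Rpl37 and 41 in Rpl41. The annotated start and the start of the run thus need not coincide. In Rpl5 it began 20 bases upstream of the start listed with its promoter, at chr5:107900508, where RefSeq's gene begins. A promoter was listed for 34 of the 45 genes, and within 50 bases of the annotated start 31 of them (91.2%) held such a run on the coding strand, against 32% of 27025 genes. The exact letters CTCTTTC were found in 9 of the 34 (26.5%), against 1.62% of all genes, and CTTTTC in 5 of the 34 (14.7%), against 4.32%. The motifs were searched on the coding strand only and may overlap each other. A match in this window is a description of the letters and not of a used start.

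The deposited values are MAS5 signals, linear intensities that were scaled by the authors so that the trimmed mean of each array is about 500. For each gene and gradient, recruitment is log2 of the polysomal signal minus log2 of the subpolysomal signal, and level is the mean of both. No unfractionated RNA was measured, so level stands in for the amount of mRNA. With RNA pools as the measured unit, fewer cells of a type and less RNA per cell cannot be told apart. Erythroid markers such as Klf1 (mean log2 signal 13.46), Gata1 (12.31) and Alas2 (13.49) were high, but Hba-a1, an alpha-globin gene, was at 5.08. Among markers of other cells, Mpo (6.61), Elane (5.78), Cd3e (5.51) and Cd79a (5.37) were low, while the myeloid marker Csf1r was at 8.32. Of the megakaryocyte markers, Pf4 was at 11.44, Itga2b at 9.33, Gp1bb at 6.98 and Gp9 at 6.40.

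Arrays of the Rpl11 shRNA stood apart from the others. Their median signal was 46.8 to 49.0 in polysomal and 65.7 to 86.7 in subpolysomal pools, against 58.9 to 68.9 and 97.2 to 125 on the other arrays. The log2 ratio of the Gapdh control probe sets of the 3′ end over the 5′ end, a sign of RNA integrity, ran from -0.46 to 3.90 on the 6 Rpl11 shRNA arrays and from -0.42 to 0.42 on the other 18. The part of either in the results for the Rpl11 shRNA was not tested.

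Members were among the brightest features of every array. The lowest of the 41 lay at percentile 97.8 of all probe sets. A ribosomal protein probe set had the highest signal on each of the 24 arrays. In 40 of the 41 genes the probe set averaged at least 0.4 of the array's top signal, which is called near the array maximum below. Rpl37 alone lay below it, at 0.131, while Rpl11 was just above the limit at 0.468. The value for Rpl11 is a mean over all 24 arrays, including those of its own shRNA. In the polysomal pool of replicate 1 its signal was 3105 of a top signal of 28779 with the Rpl11 shRNA. With the control construct it was 29027 of 41260. In all, 125 tested genes were near the maximum, of which 40 were members, 26 encoded small-subunit proteins and 59 were others.

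On the deposited scale, large-subunit mRNAs were lower in polysomal than in subpolysomal RNA in every group. In untransduced cells all 41 were lower in the polysomal pool, past the threshold in limma's moderated test (adjusted p under 0.05 over 11152 genes), as were 21.7% of all genes. Their median recruitment was -1.54 (-0.0072 when all arrays were quantile normalized, which sets the brightest signals of both pools equal), with a range from -1.85 in Rpl12, a protein at the base of the stalk that calls in elongation factors, to -1.19 in Rpl27. The median of all tested genes was -0.09. All 41 were also lower in the polysomal pool with the Rpl11 shRNA (median -1.01, against 15.1% of all genes lower), the Rps19 shRNA (median -0.83, against 19.3%) and the control construct (median -1.18, against 19.2%).

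The deficit followed the brightest signal of each array. In single gradients, the median recruitment of the members was -1.00, -0.91 and -1.15 with the Rpl11 shRNA, -0.81, -0.93 and -0.79 with the Rps19 shRNA, -1.34, -1.05 and -1.16 with the control construct, and -1.78, -1.55 and -1.28 in untransduced cells. The top polysomal signal over the top subpolysomal signal of these gradients, on the log2 scale, was -1.14, -1.04 and -1.09 with the Rpl11 shRNA, -0.87, -1.00 and -0.86 with the Rps19 shRNA, -1.44, -1.13 and -1.26 with the control construct, and -1.81, -1.60 and -1.29 in untransduced cells. In each gradient the member median therefore lay close to the ratio of the array maxima, a value to which the members themselves contribute. The 59 other genes near the maximum had median recruitment of -0.73 to -0.87 with the Rpl11 shRNA, -0.34 to -0.46 with the Rps19 shRNA, -0.44 to -0.56 with the control construct and -0.58 to -0.89 in untransduced cells, above the members in every gradient.

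**Figure D1:**
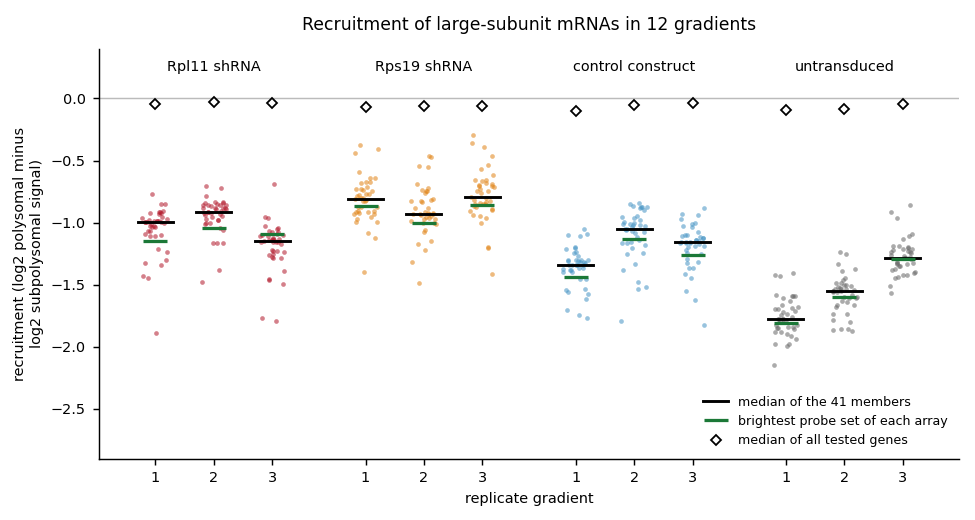
Recruitment (log2 polysomal minus log2 subpolysomal signal, vertical axis) of the 41 large-subunit genes in each of 12 gradients (horizontal axis, 3 per group). Each point is a gene, black bars are medians of the 41 genes, green bars the log2 ratio of the highest signals of the arrays, and diamonds the median of all tested genes; the members sit near the green bars, between -0.79 and -1.78 in the median, and the diamonds near 0.

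Within a group the members had a similar order at its ends in most groups, with Rpl37 as an exception. Rpl27, mutated in some patients with Diamond-Blackfan anaemia, and Rpl11 had the highest recruitment in untransduced cells, at -1.19 ± 0.26 and -1.20 ± 0.30 (SD, n = 3), and Rpl36 followed at -1.21. These neighbours do not differ beyond their spread. Rpl12 was lowest at -1.85 ± 0.29, next to Rpl23a (-1.76), which sits at the exit of the peptide tunnel, Rpl10a (-1.76) and Rplp0 (-1.72), the stem of the stalk. Rpl12 was also the lowest with the Rpl11 shRNA (-1.69 ± 0.27) and the Rps19 shRNA (-1.43 ± 0.05), and rank 39 of 41 from the highest with the control construct (-1.60 ± 0.12). Rpl37 stood at rank 40 with the Rpl11 shRNA, 2 with the Rps19 shRNA, 41 with the control construct and 17 in untransduced cells. By role, the median recruitment in untransduced cells was -1.67 for the 4 stalk proteins (Rplp0, Rplp1, Rplp2, Rpl12), -1.55 for Rpl3, Rpl8 and Rpl10 beside the peptidyl transferase centre, -1.56 for 9 proteins of the peptide tunnel and its exit, -1.49 for the bridge proteins Rpl24 and Rpl41, and -1.37 for Rpl5 and Rpl11 of the 5S particle.

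The Rpl11 shRNA lowered its own target. At its brightest probe set, Rpl11 had polysomal signals of 3105, 6212 and 5273 with the Rpl11 shRNA, against 29027, 26679 and 26817 with the control construct. Its subpolysomal signals were 5285, 11114 and 8496 with the Rpl11 shRNA, against 62271, 48790.4 and 51416 with the control construct. Every Rpl11 shRNA array lay below every control array of its pool. The level of Rpl11 fell by 2.66 (SE 0.25, limma adjusted p = 0.000972), a fold of 6.32, and its recruitment was -0.76 ± 0.08 with the Rpl11 shRNA and -0.97 ± 0.12 with the control construct (SD, n = 3), a difference of 0.21 that did not pass (adjusted p = 0.498) and that turned to -0.92 and passed (adjusted p = 0.00935) when all arrays were quantile normalized. In cells with the Rps19 shRNA, Rpl11 had polysomal signals of 30769, 24025 and 25060.2 and subpolysomal signals of 41636, 33056 and 32145. In untransduced cells they were 27599, 27092 and 22187 in polysomal and 73089, 68369 and 40231 in subpolysomal RNA. The Rps19 shRNA likewise lowered Rps19, a small-subunit protein, whose level was 13.84 ± 0.22 with the Rps19 shRNA and 15.37 ± 0.05 with the control construct (difference -1.53, SE 0.16, adjusted p = 0.00371). On the deposited scale Rps19 was lower with the Rpl11 shRNA too, at 14.80 ± 0.15 (difference -0.57, adjusted p = 0.0271). With each array centred on its median that difference was -0.17 and did not pass limma's test (adjusted p = 0.427). In untransduced cells Rps19 was at 15.42 ± 0.20.

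Rpl5, the partner of Rpl11 on 5S RNA, was lower on the Rpl11 shRNA arrays without passing the test at its brightest probe set. Its polysomal signals were 20086, 26458 and 26591 with the Rpl11 shRNA, against 32552, 33353 and 32032 with the control construct. Its subpolysomal signals were 37647, 51016 and 62658 with the Rpl11 shRNA, against 82589, 65186 and 71884 with the control construct. The groups did not overlap in either pool, and the level differed by -0.50 (SE 0.18, adjusted p = 0.0784). Between the same groups the medians of the arrays themselves differed by -0.40 in level. For the Rps19 shRNA, Rpl5 had 33749.6, 28688 and 29988 in polysomal and 63896, 56764 and 53761 in subpolysomal RNA, a level difference of -0.21 from the control construct (adjusted p = 0.653). In untransduced cells the values were 31609, 30298 and 25144 in polysomal and 108068, 89507 and 61125 in subpolysomal RNA. In recruitment, Rpl5 differed by 0.13 with the Rpl11 shRNA (adjusted p = 0.709) and by 0.24 with the Rps19 shRNA (adjusted p = 0.545) from the control construct, and both turned below 0 when all arrays were quantile normalized (-0.029 for the Rpl11 shRNA and -0.068 for the Rps19 shRNA).

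**Figure D2:**
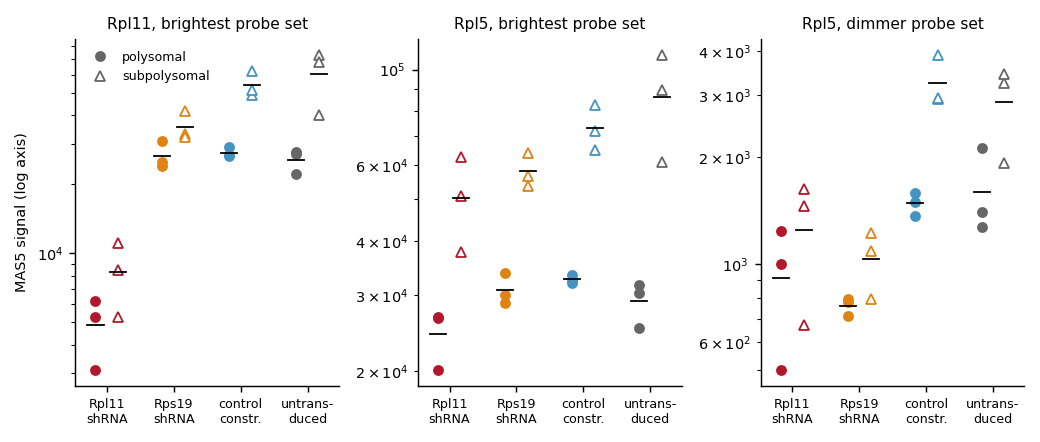
MAS5 signal (vertical axis, log scale) of Rpl11 and Rpl5 at their brightest probe sets and of Rpl5 at a dimmer one, in the 4 groups (horizontal axis). Filled circles are polysomal and open triangles subpolysomal arrays, with 3 per group and pool, and bars are their means; Rpl11 with its own shRNA lies at 3105 to 11114, apart from all other groups.

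With the Rpl11 shRNA, the mRNA level of large-subunit proteins was lower throughout on the deposited scale, but not when arrays were centred on their medians. On the deposited scale all 41 differences from the control construct were below 0, with a median of -0.38, against -0.08 for all genes. In 38 of 41 genes the 3 Rpl11 shRNA gradients lay below all 3 control gradients, against 20.6% of all genes. Past the threshold, 3 fell, against a background of 11.4% of all genes lower and 20.1% in either direction. They were Rpl11, Rpl41 (difference -0.49, SE 0.16, adjusted p = 0.0453), a very short basic peptide at a bridge to the small subunit, and Rpl3 (-0.60, SE 0.19, adjusted p = 0.0466), which reaches toward the peptidyl transferase centre. The next in order was the stalk protein Rplp1 (-0.49, adjusted p = 0.0521), which did not pass. The median difference was -0.31 in polysomal and -0.43 in subpolysomal RNA.

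By role, values were close to each other in this comparison. The 4 stalk proteins had level differences from -0.49 to -0.42 with the Rpl11 shRNA, and all 4 lay below the control gradients without passing. Of the 9 tunnel and exit proteins, none passed, 8 did not overlap with the control, and the differences ran from -0.47 in Rpl26 to -0.23 in Rpl19. The genes with the smallest differences were Rpl37 (-0.03) and Rpl27 (-0.21). The size of these differences rests on the scaling of the arrays. The median over all probe sets of the arrays differed by -0.40 on the log2 scale between the Rpl11 shRNA and the control construct, and when each array was centred on its median the member median became 0.02, with Rpl11 alone past the threshold. When 1 of the 6 gradients was left out, Rpl11 passed each time, Rpl3 at no time (adjusted p from 0.0526 to 0.113) and Rpl41 only without Rpl11 shRNA replicate 3 (adjusted p from 0.0451 to 0.113).

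**Figure D3:**
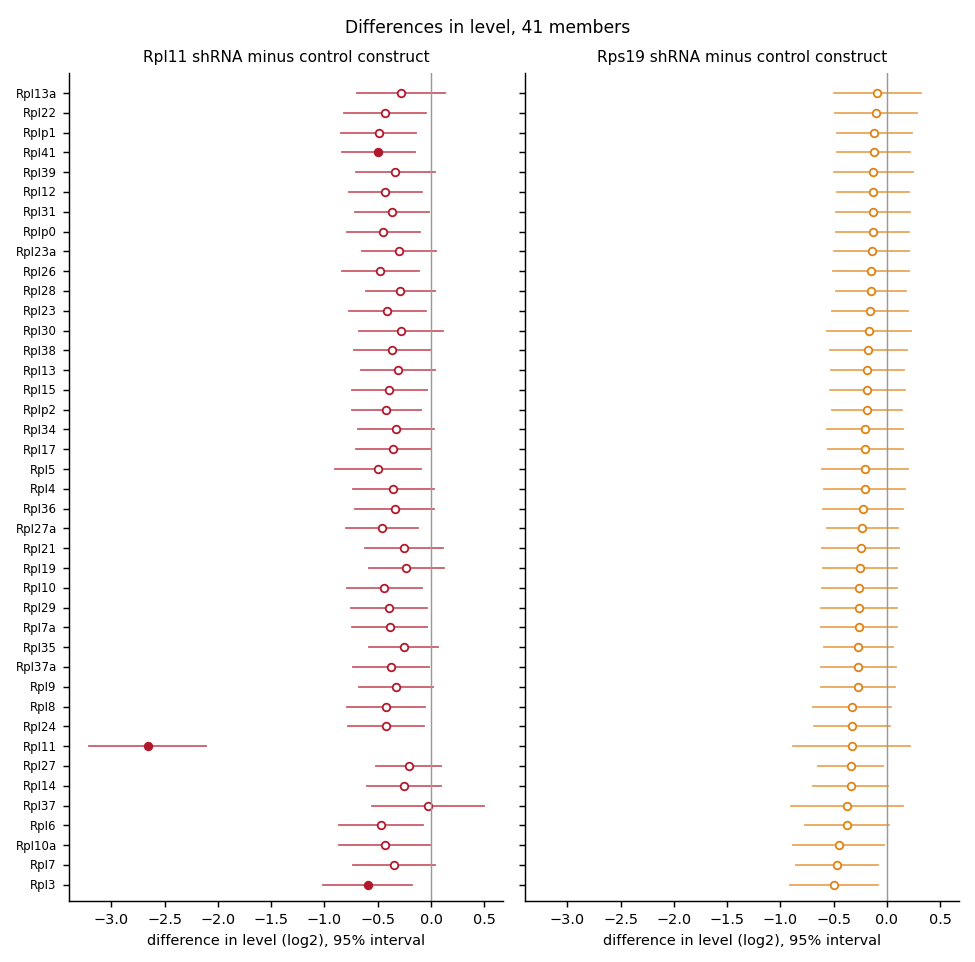
Difference in level (log2, horizontal axis) of each of the 41 genes (vertical axis, in order of the Rps19 shRNA difference), for the Rpl11 shRNA (left) and the Rps19 shRNA (right) minus the same control gradients. Points are differences of 3 against 3 gradients, lines are 95% intervals and filled points passed the threshold; on the deposited scale all 41 lie below 0 in both panels, with Rpl11 at -2.66 on the left.

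With the Rps19 shRNA, recruitment of large-subunit mRNAs was less negative than with the control construct, mainly through less signal in the subpolysomal pool. All 41 differences were above 0 on the deposited scale, with a median of 0.36 (0.023 after quantile normalization within each pool), against 0.01 for all genes. Quantile normalization sets the brightest signals of the arrays equal, so its value near 0 cannot decide whether genes near the maximum differed. The same holds for the other quantile-normalized medians given here. The medians of the arrays differed by only -0.010 in recruitment between these 2 groups. In 33 genes the Rps19 shRNA gradients lay above all control gradients, against 12.9% of all genes. The median difference was -0.05 in polysomal RNA and -0.42 in subpolysomal RNA. Only Rpl37 passed the threshold as higher, where 0.305% of all genes were higher and 0.906% passed in either direction. At an unadjusted p under 0.05 there were 20 members. The share of all genes at that rule is not given, so this count and those like it below are descriptions only.

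Rpl37, a zinc-binding protein and the only member below the near-maximum limit, had the largest difference. Its recruitment was -0.41, -0.55 and -0.30 with the Rps19 shRNA, against -1.62, -1.80 and -1.82 with the control construct. The groups were far apart, and the difference was 1.33 (SE 0.20, adjusted p = 0.0295). Its polysomal signals were 5514, 5010.5 and 5563 with the Rps19 shRNA and 5206, 3611 and 4449.98 with the control construct, which overlap. Its subpolysomal signals were 7313, 7328 and 6832 with the Rps19 shRNA, against 15980.0, 12558 and 15758 with the control construct, and the groups did not overlap. With the Rpl11 shRNA its recruitment was -1.30, -1.48 and -1.77, and in untransduced cells -1.72, -1.74 and -1.09. The other probe sets that list Rpl37 also list the coding gene Rpl37rt and were not used. The call was lost when any 1 of the 6 gradients was left out (adjusted p from 0.0812 to 0.134, difference from 1.27 to 1.39).

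The members next in order did not pass. Recruitment of Rpl8, beside the peptidyl transferase centre, was -0.70 ± 0.01 with the Rps19 shRNA and -1.18 ± 0.15 with the control construct (difference 0.49, adjusted p = 0.12). For Rpl10a, at the L1 stalk, the values were -1.01 ± 0.14 with the Rps19 shRNA and -1.62 ± 0.13 with the control construct (difference 0.61, adjusted p = 0.124). Rpl27 differed by 0.54 (adjusted p = 0.129) and Rpl11 by 0.55 (adjusted p = 0.132). The 8 genes whose groups overlapped included all stalk proteins other than Rplp2, namely Rpl12 (0.17), Rplp0 (0.13) and Rplp1 (0.18), and also Rpl5, Rpl17, Rpl22, Rpl39 and Rpl41, the lowest at 0.07. The median was 0.18 over the 4 stalk proteins, 0.35 beside the peptidyl transferase centre and 0.26 over the tunnel and its exit, differences between groups of members that were not tested. Of 6 listed genes of Diamond-Blackfan anaemia 5 were measured (Rpl5, Rpl11, Rpl15, Rpl26, Rpl27), with a median of 0.40, and 0 passed.

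In level, all 41 members lay below 0 with the Rps19 shRNA, with a median of -0.21 (-0.021 when all arrays were quantile normalized) against 0.01 for all genes, and 30 did not overlap with the control, against 12.3% of all genes. By limma's test 0 of 41 passed, against 0.78% of all genes in either direction, and 4 had an unadjusted p under 0.05. These 4 were Rpl7 (-0.47, adjusted p = 0.233), Rpl3 (-0.50, adjusted p = 0.238), Rpl27 (-0.34, adjusted p = 0.28) and Rpl10a (-0.45, adjusted p = 0.299).

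In recruitment, 0 members passed between the Rpl11 shRNA and the control construct. Of 41 members, 39 were above 0, with a median of 0.15 (-0.020 when all arrays were quantile normalized) against 0.02 for all genes, and the 2 below 0 were Rpl12 (-0.09) and Rpl36 (-0.02). In 6 genes the gradients did not overlap with the control, against 12.8% of all genes, namely Rpl10a, Rpl11, Rpl13a, Rpl14, Rpl19 and Rpl23. By limma's test 0 of 41 passed, with 0 at an unadjusted p under 0.05, against a background of 6.48%, of which 2.39% were higher. The 95% intervals of all 41 members held 0, and the widest difference, Rpl10a at 0.30, had an interval from -0.08 to 0.68.

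**Figure D4:**
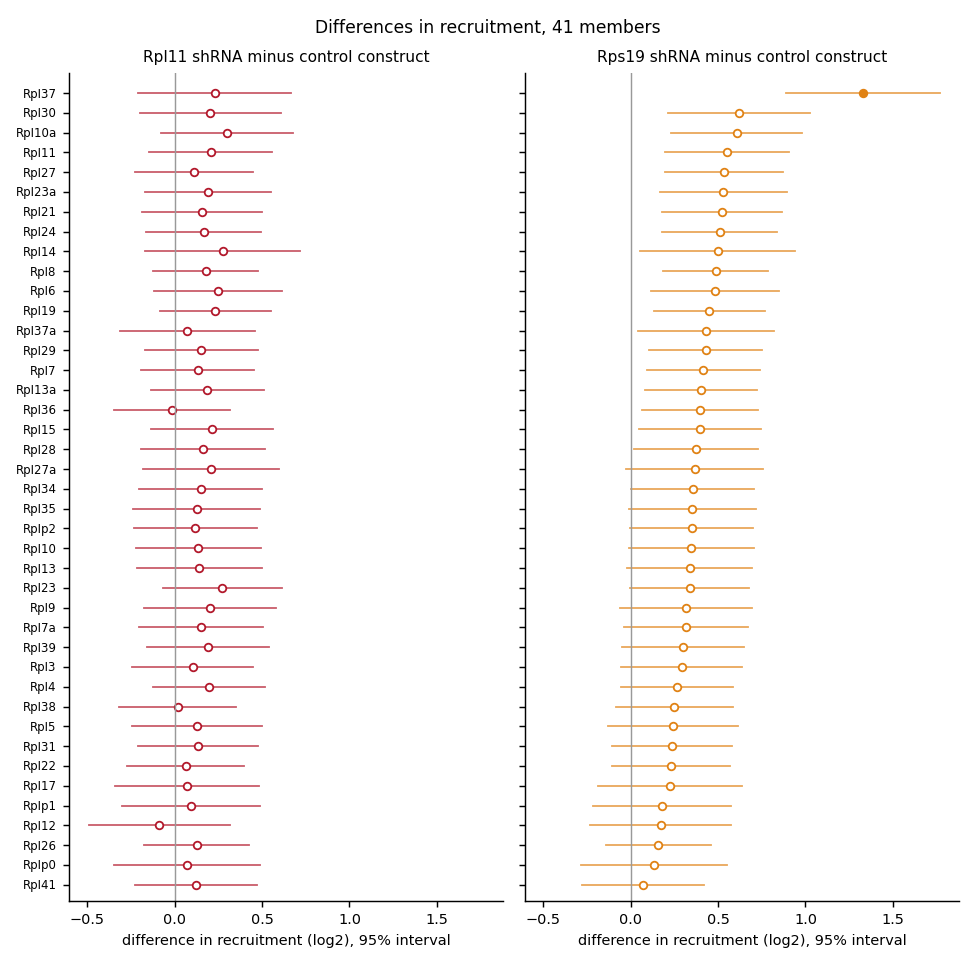
Difference in recruitment (log2, horizontal axis) of each of the 41 genes (vertical axis, in order of the Rps19 shRNA difference), for the Rpl11 shRNA (left) and the Rps19 shRNA (right) minus the same control gradients. Points are differences of 3 against 3 gradients, lines are 95% intervals and filled points passed the threshold; on the deposited scale all 41 lie above 0 on the right and Rpl37 is filled at 1.33, while on the left every interval holds 0.

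Both shRNAs are set against the same 3 control gradients, so that their values share the error of the control. Compared directly, recruitment was lower with the Rpl11 shRNA than with the Rps19 shRNA by a median of -0.21 (-0.013 after quantile normalization within each pool), with 40 of 41 members below 0 and 21 not overlapping, against 11.5% of all genes. Only Rpl37 passed (-1.10, SE 0.20, adjusted p = 0.0447), against a background of 0.601% in either direction and 0.484% lower, and with 1 gradient left out it passed only without Rpl11 shRNA replicate 1 (adjusted p from 0.0411 to 0.172). In level the median was -0.13 (0.21 with arrays centred on their medians), and Rpl11 alone passed (-2.33, SE 0.25, adjusted p = 0.000741), against 11.8% of all genes lower.

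The control construct and untransduced cells differed in recruitment of the members by a median of 0.33 (-0.0054 after quantile normalization within each pool), next to 0.36 between the Rps19 shRNA and the control construct. Here 40 of 41 members lay above 0, with Rpl37 (-0.23) below. The gradients of 6 members did not overlap, against 5.04% of all genes, among them Rpl26 (0.42), Rpl41 (0.47) and Rpl4 (0.41). By limma's test 0 of 41 passed, as did 0% of all genes, while 17 members had an unadjusted p under 0.05. The spread of untransduced gradients was wide, with member medians from -1.78 to -1.28. In level the median difference was -0.02, and 0 of 41 passed (0 also at an unadjusted p under 0.05).

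Because most members lay near the maximum, where a signal may no longer follow the amount of RNA, each member was also read at its brightest probe set below 0.4 of the array maximum, which 23 members had. This reading was added after the values were seen. In Rpl37 it is the same probe set as before. With the Rps19 shRNA the median difference in recruitment over these 23 was 0.70, against 0.37 for the same genes at their brightest probe sets, and 20 of 23 lay above 0. Rpl37, Rpl14 (1.17, SE 0.22, adjusted p = 0.0437) and Rpl17 (1.17, SE 0.18, adjusted p = 0.0287) passed as higher, against 0.332% of all genes. Each of these 3 calls was lost when any 1 gradient was left out, with the median between 0.57 and 0.78.

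Rpl14, a protein of the solvent side, has 6 probe sets that span this range of brightness. Its difference in recruitment with the Rps19 shRNA was 0.50 at the probe set with 0.787 of the array maximum, between 0.58 and 0.74 at 4 probe sets from 0.466 to 0.692, and 1.17 at the probe set with 0.0262. Among those 4 the values did not rise steadily, since the dimmest had the lowest (0.58). At the last one its recruitment was -0.08, -0.41 and -0.42 with the Rps19 shRNA, against -1.55, -1.55 and -1.31 with the control construct. Rpl17, in the wall of the peptide tunnel, had dimmer-probe recruitment of -0.21, -0.69 and -0.27 with the Rps19 shRNA, against -1.83, -1.50 and -1.35 with the control construct. The groups of both genes were clear of each other. Rpl11 at its dimmer probe set, whose signals were between 31.8 and 183 and close to background, went the other way (-0.59, adjusted p = 0.476). So did Rpl9 (-0.49, adjusted p = 0.57) and Rpl39 (-0.43, adjusted p = 0.766), without passing limma's test. Over the 23 members the difference was larger in size, in either direction, at the dimmer probe set in 17. Not every series of probe sets ran as in Rpl14. In Rpl23a the difference was 0.53 at 0.724 of the array maximum and 0.28 at 0.652. In Rpl13 it was 0.34 at 0.789 and 0.064 at 0.672.

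The dimmer probe sets also carried more differences in level. With the Rpl11 shRNA the median was -0.61 over the 23 members, against -0.37 at their brightest probe sets, and 6 fell past the threshold, against 11.5% of all genes. These were Rpl31 (-1.28, SE 0.37, adjusted p = 0.0308), at the tunnel exit, Rpl41 (-1.23, SE 0.30, adjusted p = 0.0177), Rpl5 (-1.13, SE 0.30, adjusted p = 0.0241), Rpl37a (-1.00, SE 0.22, adjusted p = 0.0125), Rpl9 (-0.80, SE 0.19, adjusted p = 0.0156) and Rpl12 (-0.62, SE 0.19, adjusted p = 0.0401). Rpl9 had signals of only 29 to 111 at this probe set. Polysomal signals were 41 to 119 in Rpl12 and 36.3 to 119 in Rpl41. These signals are near the array medians, so that the differences of Rpl9, Rpl12 and Rpl41 are close to background. When each array was centred on its median 0 of 23 members fell, with a median of -0.20, and the 6 had adjusted p of 0.0506 (Rpl41) or more. Leaving out 1 gradient at a time gave 0 to 7 such calls. Under the Rps19 shRNA the median was -0.39, and Rpl21 (-1.51, SE 0.22, adjusted p = 0.026) and Rpl15 (-1.24, SE 0.21, adjusted p = 0.0272) fell, against 0.476% of all genes; leaving out 1 gradient gave 0 or 1 such calls.

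Rpl5 shows the contrast between its probe sets. At the dimmer one its polysomal signals were 501, 997 and 1239.7 with the Rpl11 shRNA, 711, 779.7 and 793 with the Rps19 shRNA, against 1585, 1369 and 1500.2 with the control construct. Its subpolysomal signals were 669, 1458 and 1623 with the Rpl11 shRNA, 1084, 1225 and 793 with the Rps19 shRNA, against 3892, 2926 and 2952 with the control construct. In both pools the arrays of either shRNA lay below all control arrays. Over the 3 probe sets of Rpl5, from bright to dim, the level differences were -0.50, -1.13 and -0.92 with the Rpl11 shRNA and -0.21, -1.31 and -1.33 with the Rps19 shRNA, in which the middle one had adjusted p = 0.0798. Rpl11 at its dimmer probe set differed by -0.61 with its own shRNA (adjusted p = 0.143), next to -2.66 at the bright one.

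With the Rpl11 shRNA, recruitment at the dimmer probe sets rose past the threshold in Rpl15 and Rpl41, against 2.41% of all genes. Rpl15, mutated in some patients with the anaemia, had recruitment of -0.11, -0.09 and 0.03 with the Rpl11 shRNA, against -1.05, -0.76 and -0.65 with the control construct (difference 0.76, SE 0.19, adjusted p = 0.0421). With the Rps19 shRNA its values of 0.00, 0.10 and 0.23 were as high, and its difference of 0.93 just missed the threshold (adjusted p = 0.051). Rpl41 had -2.07, -0.77 and -1.09 with the Rpl11 shRNA, against -3.07, -3.17 and -2.58 with the control construct (difference 1.63, SE 0.32, adjusted p = 0.0166), at polysomal signals of only 36.3 to 119 in these groups. The median over the 23 members was 0.22. Leaving out 1 gradient gave 0 or 1 such calls.

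**Figure D5:**
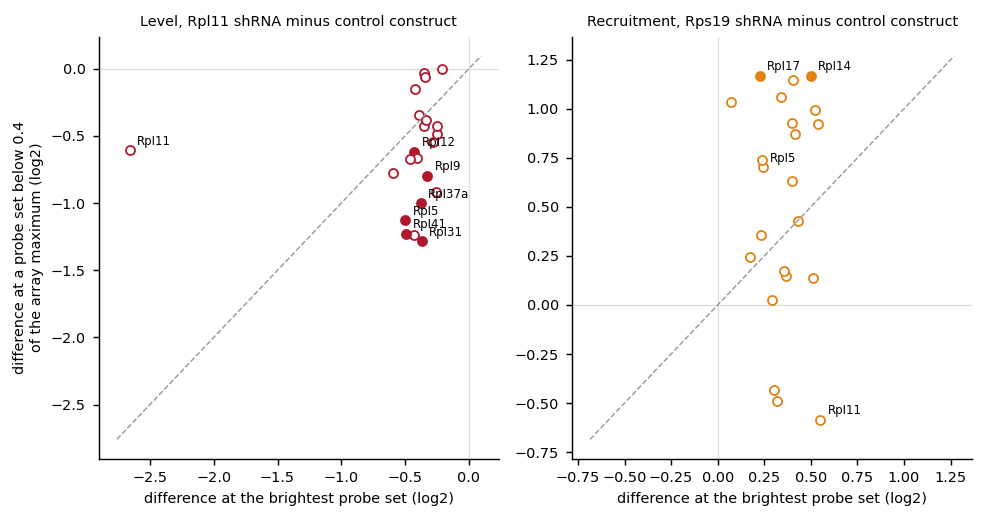
Difference from the control construct (log2) at the brightest probe set (horizontal axis) and at a probe set below 0.4 of the array maximum (vertical axis) of the same gene, for level with the Rpl11 shRNA (left) and recruitment with the Rps19 shRNA (right). Each point is 1 of 22 genes (Rpl37 has a single probe set and is left out), filled where the dimmer probe set passed the threshold, and the dashed line marks equal values; on the left 6 filled genes lie below the line on the deposited scale, on the right Rpl14 and Rpl17 are filled at 1.17.

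At these probe sets, 19 of 23 members were lower in the polysomal pool of untransduced cells past the threshold, against 21.5% of all genes, with a median of -1.16 next to -1.53 at the brightest probe sets. The 4 that did not pass were Rpl24 (-0.66), Rpl9 (-0.64), Rpl11 (-0.61) and Rpl22 (-0.22). Rpl3 stood out at its second probe set, which is shared with 2 pseudogene symbols, with a difference of -4.79. Its signals there in untransduced cells were 183, 209 and 157 in polysomal RNA, against 5083, 5236 and 5385 in subpolysomal RNA. Between the control construct and untransduced cells the median difference in recruitment was 0.03 at the dimmer probe sets, next to 0.33 at the brightest ones of the same genes, and 0 of 23 passed (0 of all genes).

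Other genes tied to the large subunit were read from lists chosen by function. Small-subunit proteins, with 27 of 32 tested, had values close to those of the members. For the Rps19 shRNA their median difference in recruitment was 0.37, and 0 passed (16 at an unadjusted p under 0.05), the smallest p being those of Rps25 (0.64, adjusted p = 0.0842) and Rps13 (0.68, adjusted p = 0.0928). With the Rpl11 shRNA their median level difference was -0.34 and 4 fell, namely Rps19, Rps2 (-0.52), Rps9 (-0.52) and Fau (-0.48), against 11.4% of all genes. With arrays centred on their medians their median was 0.06 and 0 fell. Outside the members, the genes whose recruitment over 12 gradients was most like the member mean were Rps10, Rps14 and Rps24 (Pearson r of 0.993, 0.993 and 0.991), and for level Rps14, Rps18 and Rps26 (0.992, 0.987 and 0.987). All 12 gradients share these arrays, and most of these probe sets are bright.

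Factors that assemble the large subunit had both higher and lower values. All 44 listed genes were tested. In level with the Rpl11 shRNA, 9 rose, 3 fell and 32 did not pass, with a median of 0.21, against 8.71% of all genes higher and 11.4% lower. With arrays centred on their medians 27 rose and 1 fell, against 29.8% of all genes higher and 3.44% lower, and the 9 that rose on the deposited scale were among the 27. Nmd3, the export adaptor of the subunit (0.88, SE 0.17, adjusted p = 0.00748), Gnl3l, a nucleolar GTPase (0.71, SE 0.14, adjusted p = 0.00838), and Pak1ip1 (0.68, SE 0.14, adjusted p = 0.00967) rose, and Ppan fell (-1.27, SE 0.22, adjusted p = 0.0045). In recruitment Pak1ip1 (0.70, adjusted p = 0.0394) and Nop56 (0.56, adjusted p = 0.0486), a core protein of box C/D snoRNPs, rose with the Rpl11 shRNA, against 2.39% of all genes. With the Rps19 shRNA 0 of 44 passed in recruitment (7 at an unadjusted p under 0.05), the smallest p being those of Nop56 (0.64, adjusted p = 0.0719) and Nsa2 (0.71, adjusted p = 0.174). In untransduced cells 18 were lower and 3 higher in polysomal RNA, with a median of -0.28, against 21.7% of all genes lower and 19.6% higher. Nop56 (-2.54) and Nsa2 (-2.16) were more depleted from polysomes than any large-subunit gene at its brightest probe set.

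Genes that handle the 5S particle were few. Of 6 listed, 5 were tested, and Trp53, the gene of p53, was not among them. Rpf2 and Rrs1 are also in the list of assembly factors. In level with the Rpl11 shRNA, Rpf2, which with Rrs1 places the particle in the subunit, rose by 0.52 (SE 0.16, adjusted p = 0.0455), and Gtf3a, the 5S gene factor TFIIIA, fell by 0.43 (SE 0.13, adjusted p = 0.0372), a difference of -0.030 that did not pass with arrays centred on their medians (adjusted p = 0.893). Rrs1 (0.01), Mdm2 (0.00) and Heatr3 (-0.06) did not pass. Under the Rps19 shRNA 0 of 5 passed in level (0 at an unadjusted p under 0.05) or in recruitment (1 at an unadjusted p under 0.05), where Gtf3a had the smallest p (-0.85, adjusted p = 0.0594). Of 6 paralogs of members 2 were tested. Rpl22l1, the paralog of Rpl22, had recruitment of -0.74 ± 0.16 with the Rps19 shRNA and -1.70 ± 0.11 with the control construct (difference 0.96, adjusted p = 0.0644), and Rpl7l1 differed by 0.16 (adjusted p = 0.69).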

How the data were processed

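Total RNA of polysomal and subpolysomal pools was hybridised to 1-colour arrays, and the authors made MAS5 intensity signals of 45101 probe sets on 24 arrays, per the submitters' processing notes. A second deposited table gives each gradient's polysomal fraction of the summed signal of both pools, and was recomputed from the signals to within 7.11e-10. In 2 probe sets the 6 Rpl11 shRNA arrays lack values. Signals were used as deposited, as log2 of the value plus 7.8516 (0.1 of the median signal). Control probe sets and the dimmer 50% by mean signal were left out, and each gene kept its brightest one. Probe sets with several symbols counted when 1 symbol was no pseudogene. Array correlations were 0.875 to 0.965, no array was left out, and the number of arrays limits the precision.

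Tests used R 4.3.3 and limma 3.58.1 with 1 mean per group over 12 gradients and Benjamini-Hochberg adjustment over 11152 genes at 0.05, and were tested on simulated data. Members, lists and alternatives were chosen with earlier results of these data known. All members may be named. Rpl11, Rpl5 and Rps19 always are, and up to 8 members past the threshold per direction, or the 4 with the smallest p, and up to 4 genes per list. Gene names, coordinates and start sequences are RefSeq's (GRCm38.p6). Gradients are called biological replicates in the labels. Pools were joined to gradients by the replicate number of the titles. In level, gradients of the Rps19 shRNA and the control construct with the same number deviated together (correlations 0.529, 0.294 and 0.211 over all genes), while no other comparison had all 3 correlations above 0.1. The description of Rps19 shRNA replicate 3 alone holds the word puro, whose meaning is not given. Alternatives covered the pseudocount, filter, scaling, choice of probe set, array weights, a replicate block, the deposited shares and each gradient left out.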

Additional observations from a re-analysis of the deposited data

Results flagged for a closer look

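The difference in recruitment of Rpl37 with the Rps19 shRNA against the control construct (1.33) is listed here because it passed the threshold. The direct test between the 2 shRNAs also passed (-1.10 for the Rpl11 shRNA minus the Rps19 shRNA, adjusted p = 0.0447). Both differences use the same Rps19 shRNA gradients, so the second is not independent support for the first. The first was lost when any 1 gradient was left out, the second passed only without Rpl11 shRNA replicate 1, and both were lost without the filter, with each array centred on its median, with only the groups compared and with the replicate block. At the dimmer probe sets, the differences in recruitment with the Rps19 shRNA of Rpl14 (1.17) and Rpl17 (1.17) passed the threshold while those with the Rpl11 shRNA did not (0.67 and 0.31). The direct test between the shRNAs did not pass for Rpl14 (-0.50, adjusted p = 0.292) or Rpl17 (-0.86, adjusted p = 0.0641), so that a difference between the shRNAs is not shown for them. The reverse held for Rpl15 (0.76) and Rpl41 (1.63), which passed with the Rpl11 shRNA and not with the Rps19 shRNA (0.93 and 1.03), with direct differences of -0.16 (adjusted p = 0.726) and 0.60 (adjusted p = 0.389).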

How the results depend on the processing

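With 3 gradients per group and members near the array maximum, small differences were not detectable. Over all alternatives, counts of called members stayed within 1.5 times in 117 of 169, and member medians moved by less than 1 SD in 140 of 169 and changed sign in 8. The cause of each change was not tested. For most alternatives the share of all genes called is not given. A count of called members there does not show a change particular to the members.

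With a pseudocount of 50, 5 members passed in level for the Rpl11 shRNA against the control construct. Without the filter, with only the groups compared, or with the replicate block, 0 passed in recruitment for the Rps19 shRNA, 1 in level for the Rpl11 shRNA and 0 in recruitment between the shRNAs. In level for the Rps19 shRNA, where replicate numbers paired the gradients, 0 passed with the block, also with only these groups in the fit, added after the values were seen (median -0.21). In no other comparison were the correlations of all pairs of equal number above 0.1. For the control construct against untransduced cells they were 0.421, -0.333 and 0.476 in level. With each array centred on its median, 0 passed in recruitment for the Rps19 shRNA, 1 in level for the Rpl11 shRNA (median 0.024), and between the shRNAs 0 in recruitment and 2 in level (median 0.21), while the untransduced pools had a median of -0.73.

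Quantile normalization, which makes the brightest signals of the arrays equal, removed most of the shift. A member median near 0 after it therefore cannot decide whether genes near the maximum differed. Over all arrays, recruitment medians were 0.0116 for the Rps19 shRNA (Rpl5 -0.068), -0.020 for the Rpl11 shRNA (1 called, Rpl11 at -0.92, Rpl5 -0.029), -0.042 between the shRNAs and 0.00024 for the control construct against untransduced cells. Level medians were -0.021 for the Rps19 shRNA, -0.034 for the Rpl11 shRNA (1 called) and 0.0082 between them, and the untransduced pools had -0.0072 with 6 called (Rpl11 0.22, Rpl5 0.0049). Within each pool, recruitment medians were 0.023 for the Rps19 shRNA (Rpl5 -0.068), 0.0051 for the Rpl11 shRNA, -0.013 between the shRNAs, -0.0054 for the control construct against untransduced cells and -1.18 for the untransduced pools.

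With probe sets of 1 symbol only, 2 passed in recruitment for the Rps19 shRNA, 2 in level between the shRNAs and 22 in the untransduced pools. With the mean over probe sets, Rpl11 was at -0.017 in recruitment for the Rps19 shRNA, and 1 passed in recruitment and 10 in level for the Rpl11 shRNA, and 0 in recruitment and 3 in level between the shRNAs. With array weights, whose estimate did not fully converge, 9 passed in level for the Rps19 shRNA, 34 for the Rpl11 shRNA and 12 between them. The share of all genes called with weights is not given, so these counts cannot be read as particular to the members. Rpl37 as the only member below 0.4 of the maximum had 1.33 in recruitment and -0.37 in level for the Rps19 shRNA, -0.031 in level for the Rpl11 shRNA (0 called), -1.10 in recruitment and 0.34 in level (0 called) between the shRNAs, -0.23 in recruitment for the control construct against untransduced cells, and 1 call in the untransduced pools.

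At the dimmer probe sets, 3 passed in recruitment for the Rps19 shRNA (median 0.70, Rpl11 -0.59) and 2 in level (median -0.39, Rpl11 0.084), 2 in recruitment and 6 in level (median -0.61) for the Rpl11 shRNA, and 4 in level between the shRNAs (median 0.049), where the recruitment median was -0.39. The control construct against untransduced cells had a recruitment median of 0.028, and the untransduced pools -1.16 with 19 called.

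With 1 gradient left out, recruitment for the Rps19 shRNA had 0 called and medians from 0.28 to 0.43, and level 0 called and -0.28 to -0.17. For the Rpl11 shRNA, recruitment had 0 called and 0.08 to 0.22, and level 1 to 3 called and -0.47 to -0.28. Between the shRNAs, recruitment had 0 to 1 called and -0.27 to -0.16, and level 1 called and -0.23 to -0.05. The control construct against untransduced cells had 0 called, with 0.23 to 0.46 in recruitment and -0.17 to 0.10 in level, and the untransduced pools 41 called and -1.66 to -1.42.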
